A study of Mus musculus with 60 samples.

Results

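The genes described here are those whose symbols begin with Nduf and name a subunit or an assembly factor of respiratory complex I. They were matched by symbol alone, which gave 45 of the 21999 genes in the deposited table. No measured value entered the matching, but the family was chosen with earlier results of these data known. The 45 genes comprised 7 core subunits, 9 accessory subunits of the matrix arm, 19 accessory subunits of the membrane arm, Ndufab1 of both arms and 7 assembly factors (Ndufaf). The other 2 carry the name but are not complex I subunits: Ndufa4 is a subunit of complex IV, and Ndufa4l2 is its paralog. Poly(A) RNA of 20 mice was sequenced in 3 brain regions (hippocampus, striatum and prefrontal cortex), 1 library per mouse and region and 60 libraries in all. Mice were wild type (WT) or carried a knockout (KO) of Glo1, the glyoxalase that clears methylglyoxal. From 8 to 12 weeks of age each received vitamin B6 (VB6) at 1.4 mg per 100 g of food (normal diet) or at 5 µg per 100 g (lacking diet). The 4 combinations, called WT normal, WT lacking, KO normal and KO lacking, held 5 mice each. The strain and the sex are not named in the labels, and how the knockout was made is not given there either.

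Complex I, the NADH:ubiquinone oxidoreductase, takes electrons from NADH, passes them along a chain of iron-sulfur clusters to ubiquinone, and pumps protons across the inner mitochondrial membrane. Its core subunits carry out this chemistry, partly encoded in the nucleus and partly in mitochondrial DNA. Accessory subunits surround and stabilise the core, and assembly factors help to build the complex but are not part of it. Neurons depend heavily on oxidative phosphorylation, and inherited defects of complex I commonly affect the brain.

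Library totals lay between 7640047 and 13928265 counts and RNA integrity numbers (RIN) between 7.6 and 9.3. Glo1 itself had 0 to 10 counts in libraries from KO mice and 299 to 734 in those from WT mice. VB6, in a material that the labels do not name, was 58.25 to 78.09 ng/µl on the normal diet and 2.25 to 5.63 ng/µl on the lacking diet. All KO libraries carried batch number 1 and all WT libraries batch number 2, so genotype and batch cannot be told apart in any comparison of KO with WT. Comparisons of diets within a genotype, and of regions, lay within a batch. Summed levels of neocortical, striatal and hippocampal marker genes were each highest in the region named on the label, without overlap with the other regions. The 7 mitochondrially encoded subunits (mt-Nd1 to mt-Nd6 and mt-Nd4l) were listed with 0 counts in every library and are not described further.

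Levels of the 45 genes were set side by side on the deposited RPKM scale, which divides by gene length. Over the 60 libraries, mean RPKM ranged 128-fold. The 5 highest genes were Ndufs6 with 148, Ndufa4 with 91.9, Ndufa6 with 79.6, Ndufb3 with 75.7 and Ndufc2 with 73.7. Ndufs6 is a zinc-binding subunit of the matrix arm, and Ndufc2 is an accessory subunit of the membrane arm. The 5 lowest were Ndufa4l2 with 1.15, Ndufb7 with 1.43, Ndufs5 with 1.73, Ndufaf6 with 1.75 and Ndufa11 with 2.58. Ndufa4l2, Ndufs5 and Ndufaf6 were also thinly counted, with mean counts of 11.9, 16.3 and 23.3 per library.

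Among the core subunits, mean RPKM was 55.9 for Ndufv2, an iron-sulfur subunit of the NADH-oxidising tip, and was 35.1 for Ndufs8. Lower values were found for Ndufs1 with 19.0, for Ndufv1, which binds NADH, with 15.6, for Ndufs3 with 13.0 and for Ndufs7 with 5.38. Transcript levels of these subunits, each present once in a complex, were thus not equal on this scale. The median was 28.0 RPKM over the accessory genes of the matrix arm, 20.3 over those of the membrane arm, 19.0 over the core genes and 12.2 over the assembly factors, with wide overlap. The highest assembly factor was Ndufaf2 with 20.1 RPKM. Of its 2978 bp of exons in GENCODE vM21, 65.6% lie inside those of the lincRNA B230220B15Rik. Its deposited length was 679 nt, so this overlap need not hold for the exons that were counted.

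**Figure D1:**
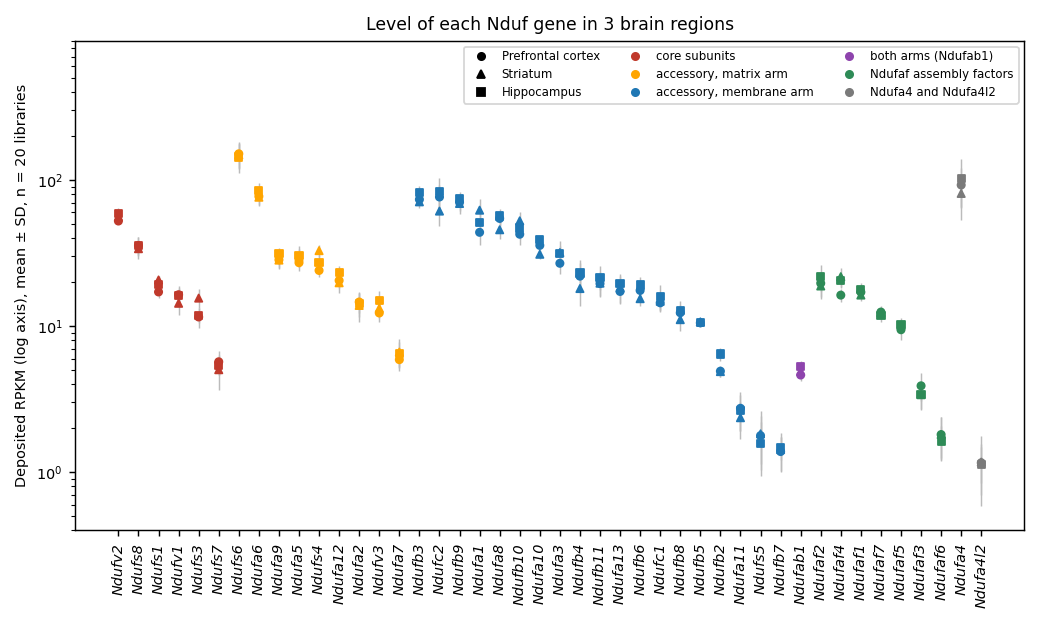
Deposited RPKM of each gene shown (log axis), mean ± SD over 20 libraries in each of the 3 regions, with genes grouped by role (colour) and regions by symbol. Genes differ from each other far more than regions do: means over all libraries run from 1.15 for Ndufa4l2 to 148 for Ndufs6.

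The order of levels depended in part on the gene length that was used. The deposited length was 8086 nt for Ndufs1 and 4522 nt for Ndufb7, against 2661 and 623 nt for the longest coding transcript in GENCODE vM21. Per kilobase of that coding transcript, Ndufs1 rose in rank from 23 to 11 and Ndufb7 from 44 to 37. Ndufa4 stood first on that scale with 208 and Ndufs6 second with 123. The orders on the 2 scales had a Spearman correlation of 0.909 over the 45 genes, a description of genes and not of replicates.

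Sequences before the transcription start were examined because promoters of many respiratory genes hold sites of nuclear respiratory factor 1 (NRF1). RefSeq promoters (GRCm38.p6, from 250 bases before to 50 after the start) were found for 39 of the 45 genes. The letters GCGCNTGCG, the core of the NRF1 motif, were present on either strand in 11 of these 39 (28.2%), against 7.12% of the promoters of all 27025 genes in the table and 9.68% of those of protein-coding genes. The 11 were Ndufa5, Ndufa6, Ndufa8, Ndufa11, Ndufa12, Ndufaf4, Ndufaf5, Ndufb4, Ndufb10, Ndufs5 and Ndufs6. Ndufa8, Ndufa11, Ndufaf4 and Ndufaf5 held it in the form GCGCATGCG, a subset of the first (10.3%, against 1.95% of all genes and 2.61% of protein-coding genes). AAGATGGCG, part of a YY1 motif, was present in 5 of 39 (12.8%), against 1.64% of all genes and 2.14% of protein-coding genes. These 5 were Ndufa9, Ndufc1, Ndufs4, Ndufs6 and Ndufs7. CCGGAAGT, an ETS-family motif, was present in 1 of 39 (2.56%), Ndufs3, against 4.31% of all genes and 5.69% of protein-coding genes. These are matches of letters and were not tested as sites. The 120 bases before the start are shown for 2 genes in which this form lies on both strands as a palindrome, in capitals. They are also shown for Ndufc2 and Ndufb2, on which later results turn and which hold none of these motifs in the window. The windows are chr4:24897963-24898082 (plus strand) for Ndufaf4, chr17:56717642-56717761 (plus) for Ndufa11, chr7:97399883-97400002 (plus) for Ndufc2 and chr6:39592445-39592564 (plus) for Ndufb2.
Ndufaf4: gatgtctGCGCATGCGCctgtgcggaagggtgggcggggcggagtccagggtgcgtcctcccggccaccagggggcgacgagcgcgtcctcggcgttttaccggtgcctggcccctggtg
Ndufa11: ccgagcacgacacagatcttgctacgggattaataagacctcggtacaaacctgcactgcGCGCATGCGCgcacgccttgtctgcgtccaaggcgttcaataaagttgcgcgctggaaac
Ndufc2: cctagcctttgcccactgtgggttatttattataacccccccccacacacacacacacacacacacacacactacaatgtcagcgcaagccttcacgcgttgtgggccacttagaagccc
Ndufb2: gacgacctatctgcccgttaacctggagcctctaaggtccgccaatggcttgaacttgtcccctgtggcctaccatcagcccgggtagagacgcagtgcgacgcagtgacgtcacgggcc

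Regions were compared over all 60 libraries with edgeR's quasi-likelihood test, and a gene was called at a p-value under 0.05 after Benjamini-Hochberg (BH) adjustment over all genes. CPM below are counts scaled to library size with TMM factors. In the striatum against the prefrontal cortex, 11 of the 45 genes were higher and 7 lower, which is 40.0% of them, below the 69.9% of all 13930 tested genes that were called (35.9% higher and 34% lower). In the hippocampus against the prefrontal cortex 9 were higher and 2 lower (24.4%, against 59.3% of all genes, 30.2% higher and 29.1% lower). In the striatum against the hippocampus 8 were higher and 8 lower (35.6%, against 66.4%, 33.6% higher and 32.9% lower). In all, 26 of the 45 genes were called in at least 1 of the 3 comparisons, where the share of all genes was at least 69.9%. The median log2 difference of the 45 was 0.02, 0.07 and -0.02 in the 3 comparisons, beside 0.014, 0.007 and 0.005 over all genes. The called genes changed in both directions, each by less than 1.5-fold.

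The genes higher in the striatum than in both other regions were the core subunits Ndufs1 and Ndufs3, the accessory subunits Ndufs4, Ndufa1 and Ndufb10, and the assembly factor Ndufaf4. Of these, Ndufs1, Ndufs3 and Ndufs4 were so in WT libraries alone and in KO libraries alone. Ndufa1 and Ndufb10 were not in KO libraries alone. Ndufaf4 was not in WT libraries alone, without TMM factors or with limma on log2(RPKM + 1). Ndufs4, a matrix-arm subunit whose loss in mice causes a fatal encephalopathy, was at 28.2 to 45.4 CPM (median 36.9) in the 20 prefrontal libraries, 28.6 to 47.3 (median 41.8) in the hippocampus and 39.9 to 64.5 (median 51.1) in the striatum. Striatal values overlapped with the upper part of the other ranges, and the striatal library was above the cortical one in 19 of 20 mice. The log2 fold change was 0.48 (SE 0.055, adjusted p = 2.7e-11) over the prefrontal cortex and 0.36 (SE 0.055, adjusted p = 6.2e-08) over the hippocampus.

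Ndufs3, a core subunit of the module that hands electrons to ubiquinone, was at 17.4 to 31.5 CPM (median 25.3) in the prefrontal cortex, 21.1 to 29.2 (median 24.5) in the hippocampus and 27.4 to 39.8 (median 36.0) in the striatum. The lowest striatal library thus lay above the medians of both other regions. The log2 fold change was 0.46 (SE 0.056, adjusted p = 1.5e-10) over the cortex and 0.47 (SE 0.056, adjusted p = 6.2e-11) over the hippocampus. Of the stretches of 75 bases in Ndufs3 exons, 12.2% also occur in Kbtbd4 or Gm12251, so some of its counts may be shared.

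Ndufs1, the largest core subunit, had 123 to 170 CPM (median 136) in the prefrontal cortex, 134 to 187 (median 149) in the hippocampus and 151 to 203 (median 171) in the striatum. It was higher in the striatum than in the cortex in 20 of 20 mice, with a log2 fold change of 0.30 (SE 0.037, adjusted p = 2.5e-10). The same was true of Ndufa1, an X-linked membrane-arm subunit, in 20 of 20 mice, at 13.8 to 24.5 CPM (median 17.9) in the cortex and 19.2 to 40.9 (median 26.1) in the striatum. Its log2 fold change was 0.53 (SE 0.078, adjusted p = 2.1e-08), the largest among the 45 genes in that comparison. Ndufaf4, which helps to build the ubiquinone-binding module, had 0.45 (SE 0.061, adjusted p = 2.8e-09), and Ndufb10, a subunit of the distal membrane arm, 0.33 (SE 0.059, adjusted p = 1.8e-06).

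In this fit the genes lower in the striatum than in both other regions were all accessory subunits of the membrane arm: Ndufa8, Ndufa10, Ndufb4, Ndufb6 and Ndufc2. That split by role depended on the fit. The core subunit Ndufv1 was also lower than in both with RIN as a covariate, without TMM factors, with limma on log2(RPKM + 1) and in KO libraries alone. In WT libraries alone only Ndufa10 and Ndufc2 were lower than in both. Counts of Ndufb4 and Ndufb6 are less certain, since 17.2% and 27.8% of their 75-base stretches occur in other genes. Ndufa10 had 91.8 to 124 CPM (median 106) in the striatum, 100 to 135 (median 121) in the cortex and 105 to 139 (median 126) in the hippocampus. It was lower in the striatum than in the hippocampus in 19 of 20 mice (log2 fold change -0.25, SE 0.033, adjusted p = 2.1e-09). Ndufc2 had 32.6 to 68.3 CPM (median 44.6) in the striatum, 38.3 to 80.5 (median 58.2) in the cortex and 42.6 to 99.4 (median 54.9) in the hippocampus. Its log2 fold change was -0.29 (SE 0.089, adjusted p = 0.0031) against the cortex and -0.36 (SE 0.088, adjusted p = 0.0003) against the hippocampus, and the wide ranges overlapped. By role, of the 19 membrane-arm genes 3 were higher and 6 lower in the striatum than in the cortex, and 3 higher and 7 lower than in the hippocampus. None of the 9 matrix-arm genes was lower in the striatum than in the cortex, with 3 higher (Ndufa5, Ndufa7 and Ndufs4). Against the hippocampus 1 was higher (Ndufs4) and 1 lower (Ndufa12). Among the core genes, Ndufv1 was lower in the striatum than in the cortex (-0.17, SE 0.062, adjusted p = 0.011) while Ndufs1, Ndufs3 and Ndufv2 were higher, and Ndufs7 and Ndufs8 were not called in any region comparison.

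In the hippocampus Ndufb2, Ndufb3 and Ndufa12 were higher than in both other regions, and the assembly factor Ndufaf7, a methyltransferase, was lower. Ndufa12 shares 14.6% of its 75-base stretches with Gm15920. Ndufb2, of the distal membrane arm, was at 29.3 to 42.9 CPM (median 34.7) in the hippocampus, 24.4 to 33.7 (median 27.1) in the cortex and 22.4 to 31.5 (median 28.1) in the striatum. It was higher in the hippocampus than in the cortex in 20 of 20 mice, with a log2 fold change of 0.33 (SE 0.043, adjusted p = 1.5e-09). In the cortex Ndufs1, Ndufv2, Ndufa3 and Ndufaf4 were lower than in both other regions, and no gene of the 45 was higher than in both. The split of the hippocampal calls depended on scaling: without TMM factors 18 genes were higher and 0 lower than in the cortex, and 5 higher and 18 lower in the striatum than in the hippocampus. With limma on log2(RPKM + 1) these splits were 17 and 0, and 5 and 18, and 8 and 8 in the striatum against the cortex. Without TMM factors the median of all genes was 0.07 between hippocampus and cortex and -0.08 between striatum and hippocampus. For the fits without TMM factors and with limma, the share of all genes called is not given here. Their splits are therefore not read as particular to the 45 genes.

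Within each batch, which is also within each genotype, every region call on the 45 genes kept its sign. Of the 18 genes called between striatum and cortex, 13 were called in WT libraries alone, 12 in KO libraries alone and 10 in both. Of the 11 called between hippocampus and cortex, the counts were 3, 7 and 2, and of the 16 between striatum and hippocampus they were 10, 11 and 6. The fit of WT libraries alone called 8 genes higher and 3 lower in the striatum than in the hippocampus. That of KO libraries alone called 4 higher and 9 lower. Each of these fits held fewer libraries than the joint fit, and the share of all genes it called is not given here. The smaller counts are therefore not read as particular to the 45 genes. The cell-type markers also differed between regions: the summed level of 6 oligodendrocyte markers was 5510 to 7140 CPM in the striatum, 1610 to 3210 in the cortex and 3590 to 6390 in the hippocampus. That of 6 neuronal markers was 4980 to 7470, 9940 to 12900 and 6630 to 8950 CPM, and that of 6 astrocyte markers 1660 to 2190, 1910 to 2890 and 2620 to 3410 CPM. No marker of these lists was at 0, and the part of cell composition in the region differences was not tested. In bulk tissue, fewer cells of a type and less RNA per cell cannot be told apart.

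**Figure D2:**
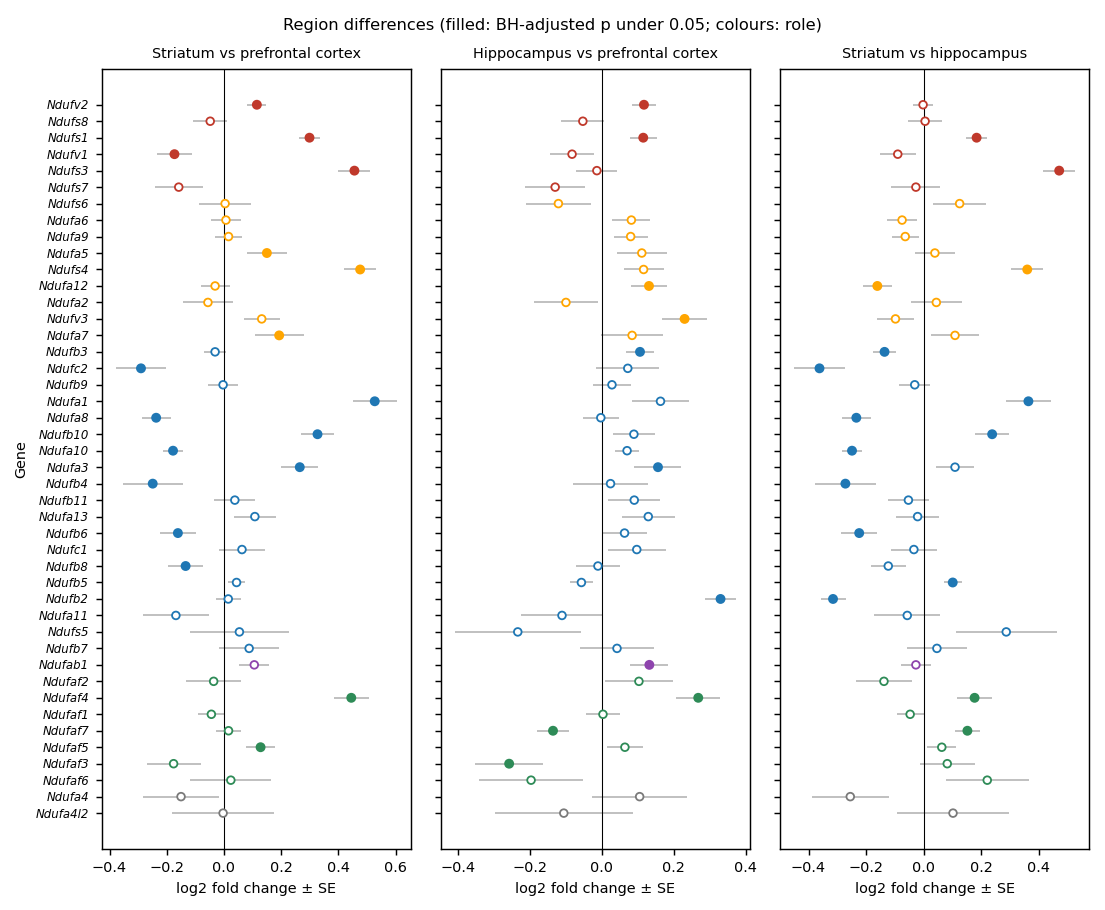
Log2 fold change ± SE between regions (x axis) of each gene shown (y axis, grouped by role in colour) from the fit of 60 libraries, with filled points for genes past the BH threshold of 0.05. Called genes lie on both sides of 0, with 11 higher and 7 lower in the striatum than in the prefrontal cortex.

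Of 15 further assembly factors that do not carry the Nduf name, 12 were matched by symbol. In the striatum against the cortex 7 of these were higher (Aifm1, Ecsit, Lyrm2, Nubpl, Tmem126a, Tmem126b and Tmem186) and Acad9 was lower, with a median log2 difference of 0.17. These are 8 of 12, where 69.9% of all genes were called. Aifm1, a flavoprotein of the intermembrane space needed for respiratory chain assembly, was at 6.54 ± 0.574 RPKM (SD, n = 20) in the striatum and 5.19 ± 0.506 in the cortex, a log2 fold change of 0.36 (SE 0.048) in edgeR. Acad9, an acyl-CoA dehydrogenase relative that acts in membrane-arm assembly, was at 3.06 ± 0.26 against 3.66 ± 0.365 RPKM (-0.23 on the log2 scale, SE 0.039). In the hippocampus against the cortex Aifm1, Tmem126b and Tmem70 were higher and none was lower, where 59.3% of all genes were called. In the striatum against the hippocampus 5 were higher (Aifm1, Ecsit, Lyrm2, Tmem126a and Tmem186) and 2 lower (Acad9 and Tmem70), where 66.4% of all genes were called. None of the 12 was called in any comparison of genotype or diet within a region.

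Genotype and diet were compared within each region, in an edgeR fit of its 20 libraries. KO lacking mice were at one end of the design and WT normal mice at the other. A single gene of the 45 passed the threshold in any of the 15 such comparisons: Ndufc2 was lower in the prefrontal cortex of KO mice, averaged over diets. That is 2.22% of the 45 genes, against 0.673% of all 13223 tested (89 genes, of which 73, or 0.552%, were lower).

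Ndufc2 (chromosome 7, 97400003 to 97407802, plus strand, GRCm38) had 57.7, 63.6, 67.2, 69.9 and 80.5 CPM in the prefrontal cortex of the 5 WT normal mice. The 5 WT lacking mice had 49.1, 65.0, 65.5, 67.5 and 76.8 CPM. The 5 KO normal mice had 44.1, 46.7, 48.7, 58.8 and 71.6 CPM, and the 5 on the lacking diet 38.3, 43.4, 45.4, 50.1 and 56.1 CPM. All 5 KO lacking mice thus lay below all 5 WT normal mice, while KO and WT mice overlapped when diets were joined. Astrocyte markers had the same order of groups at both ends of the design: the summed level of 6 such genes was 2360 to 2890 CPM in WT normal mice, 2100 to 2730 in WT lacking, 2000 to 2440 in KO normal and 1910 to 2240 in KO lacking mice. KO lacking and WT normal mice thus did not overlap in these markers either. Of the 6 markers 1 was called for genotype (median log2 difference -0.14), none was at 0, and their part in the differences of the Nduf genes was not tested. The summed levels of neuronal, oligodendrocyte, microglial and endothelial markers overlapped between KO lacking and WT normal mice. For the microglial markers the sum was 298 to 358 CPM in KO lacking and 342 to 406 in WT normal mice. Of these 6 markers 1 was also called for genotype (median log2 difference -0.045). Over diets, Ndufc2 in KO differed from WT by a log2 fold change of -0.41 (SE 0.089, adjusted p = 0.023), a level 0.755 times that of WT. No other annotated exon overlaps those of Ndufc2, and none of its 75-base stretches occurs in another gene.

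This call lay close to the threshold and was not kept in every fit. Ndufc2 stayed called in 13 of 20 edgeR fits that each left out a replicate, with adjusted p at most 0.0642. It was also called in 6 of 6 alternative fits of other kinds. Leaving out KO lacking replicate 325, KO normal replicate 368, 381 or 390, WT lacking replicate 225 or 259, or WT normal replicate 317 left 0 of the 45 genes called, with Ndufc2 at -0.37 to -0.40. Leaving out KO lacking replicate 244 gave 3 genes, KO normal replicate 267 or 268 gave 4 each, and WT lacking replicate 226 gave 6, all lower in KO. With RIN as a covariate 4 were called, namely Ndufc2, Ndufb10, Ndufs6 and Ndufa4. How many of all genes these fits called is not given here.

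The genes next in order in that comparison were membrane-arm and matrix-arm accessory subunits and Ndufa4. Ndufb10 in the prefrontal cortex had 38.2 to 60.2 CPM (median 46.2) in the 10 KO mice and 49.9 to 71.8 (median 55.9) in the 10 WT mice. Its log2 difference was -0.29 (SE 0.072, adjusted p = 0.057). Ndufs6 had 63.3 to 118 CPM (median 78.3) in KO and 82.3 to 116 (median 111) in WT, with a log2 difference of -0.37 (SE 0.095, adjusted p = 0.062). Ndufa4 had 76.6 to 159 (median 99.5) and 103 to 260 (median 138), with -0.48 (SE 0.125, adjusted p = 0.067). The ranges of KO and WT overlapped in all 3. At an unadjusted p under 0.05 stood 14 of the 45 genes (31.1%, against 14.1% of all genes). Among them, Ndufa4, Ndufa6, Ndufb3, Ndufb4, Ndufb10, Ndufc1, Ndufc2 and Ndufs6 had lower means in KO, and Ndufa11, Ndufb7, Ndufb11 and the core genes Ndufs1 and Ndufs3 had higher means. The median over the 45 genes was -0.02, beside 0.00 over all genes, and without TMM factors it was 0.00.

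KO lacking mice differed from WT normal mice in the prefrontal cortex by -0.55 for Ndufc2 (SE 0.126, adjusted p = 0.052), -0.42 for Ndufb10 (SE 0.102, adjusted p = 0.063), -0.36 for Ndufa6 (SE 0.0948, adjusted p = 0.084) and -0.51 for Ndufs6 (SE 0.135, adjusted p = 0.089). None of the 45 passed in edgeR or in limma on log2(RPKM + 1), where 0.28% of all genes were called in edgeR, and 14 had an unadjusted p under 0.05 (31.1%, against 13.0% of all genes). The astrocyte markers given above differed between the same 10 libraries by a median of -0.26, with 0 of 6 called. DESeq2 called 4, Ndufa6, Ndufb10, Ndufc2 and Ndufs6, and an edgeR fit of only the 10 compared libraries also called 4, with Ndufa4 in place of Ndufa6. Leaving out WT lacking replicate 241 gave 3 called genes, and leaving out WT lacking replicate 226, KO lacking replicate 244, or KO normal replicate 267 or 368 gave 2 each. The share of all genes called by these alternative fits is not given here. The values of the 2 groups of 5 did not overlap for 6 of the 45 genes, and for 2.87% of all genes tested (380). Among the 6, Ndufa4, Ndufb10, Ndufc2 and Ndufs6 were lower, and Ndufaf7 higher, in KO lacking mice. Ndufs6 had 105, 106, 113, 115 and 116 CPM in WT normal mice against 63.3, 69.0, 82.1, 86.3 and 92.0 in KO lacking mice. Over all 45 genes the median was -0.06, with 17 genes higher.

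**Figure D3:**
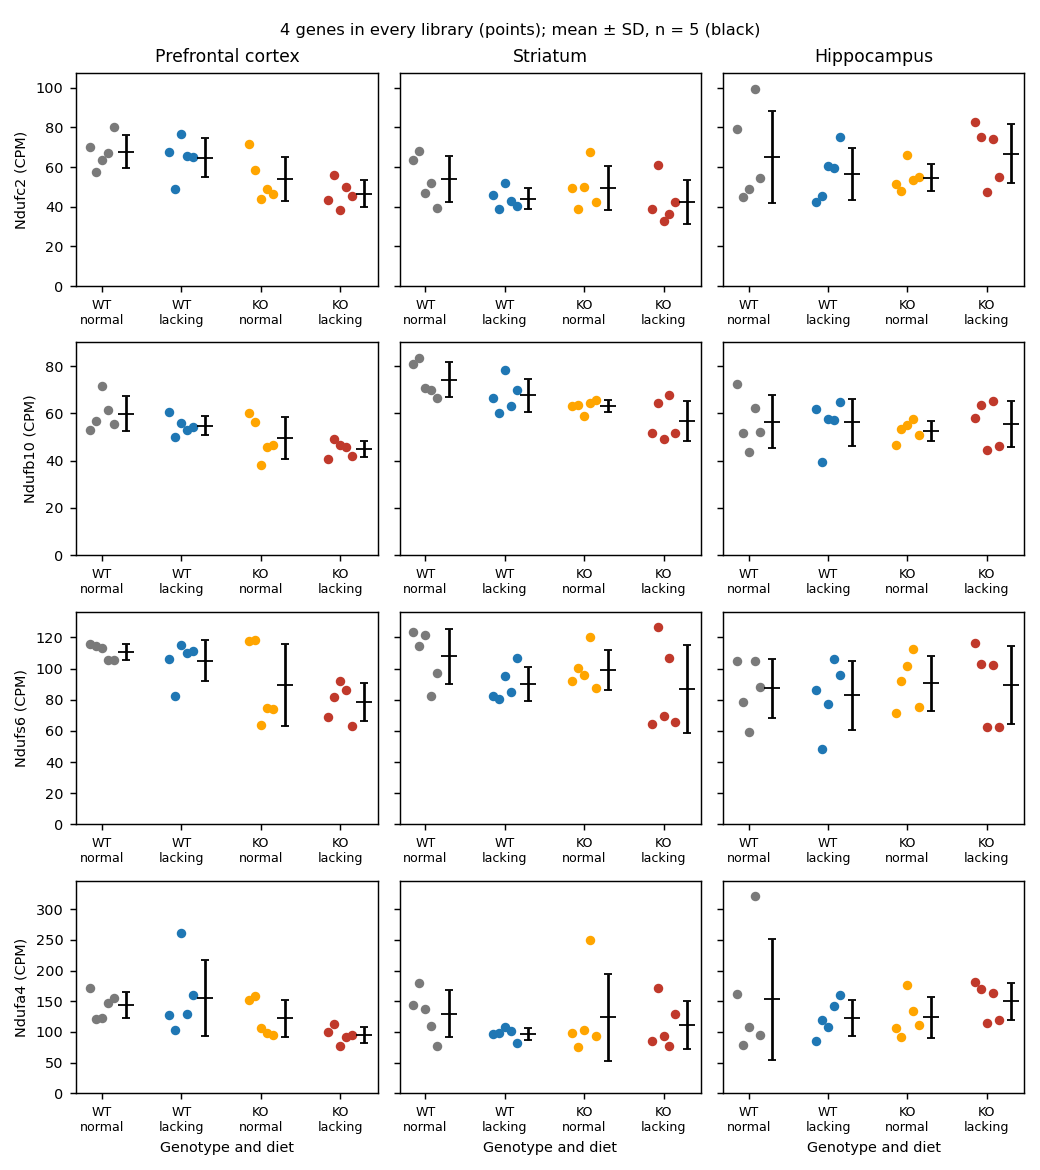
CPM of Ndufc2, Ndufb10, Ndufs6 and Ndufa4 (rows) in every library of the 3 regions (columns) by genotype and diet, with mean ± SD of 5 mice in black. In the prefrontal cortex the 5 KO lacking mice lie below the 5 WT normal mice for each of the 4 genes, and in the hippocampus the groups overlap.

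Outside the prefrontal cortex none of the 45 genes was called for genotype or for KO lacking against WT normal in edgeR, DESeq2 or limma. The background for these was 0.203% and 0.0826% of all genes in the striatum. For the hippocampus it was 0.164% and 0.0149%. At an unadjusted p under 0.05 in edgeR stood 4 and 3 of the 45 genes in the striatum (8.89% and 6.67%, against 5.78% and 5.06% of all genes). In the hippocampus these were 4 and 2 genes (8.89% and 4.44%, against 4.24% and 3.62%). In the striatum Ndufb10 had 66.4, 69.8, 70.6, 80.7 and 83.4 CPM in WT normal mice and 49.2, 51.5, 51.9, 64.3 and 67.6 in KO lacking mice. Only the highest KO value reached into the WT range, and the log2 difference was -0.39 (SE 0.096, adjusted p = 0.26). In the hippocampus the smallest p was that of Ndufa1, at 15.3 to 20.3 CPM in WT normal mice and 20.2 to 25.7 in KO lacking mice (log2 difference 0.34, SE 0.150, adjusted p = 1.0). The median difference of the 45 genes between these 2 groups was -0.08 in the striatum, with 13 of 45 higher, and 0.08 in the hippocampus, with 33 of 45 higher. None of the 45 was without overlap between them in either region, against 0.684% (striatum) and 0.971% (hippocampus) of all genes. The summed level of 6 choroid plexus markers in the hippocampus was 35.3 to 1110 CPM in WT normal mice and 30.6 to 401 in KO lacking mice, and its part was not tested.

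Whether the genotype difference itself differed between regions was tested in the fit of 60 libraries. None of the 45 genes was called in edgeR for any of the 3 pairs of regions, in which at most 1 of 13930 genes (0.00718%) passed. An unadjusted p under 0.05 was found for 4 of the 45 genes and 1279 of all genes between striatum and cortex. The counts were 8 and 840 between hippocampus and cortex, and 3 and 809 between striatum and hippocampus. For Ndufc2 the hippocampal difference exceeded the prefrontal one by 0.39 (SE 0.175, adjusted p = 0.80), and for Ndufb10 by 0.22 (SE 0.118, adjusted p = 0.86). The fall of Ndufc2 in the prefrontal cortex is therefore not shown to differ from its values in the other regions. The difference between KO lacking and WT normal mice was compared between regions in the same way. It called 0 of the 45 genes and 0% of all genes for each pair. An unadjusted p under 0.05 was found for 1 of the 45 genes and 455 of all genes between striatum and cortex. Between hippocampus and cortex these were 9 and 1019, and between striatum and hippocampus 5 and 544.

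Ndufb10 is also 1 of 6 genes of the 45 on chromosome 17, which carries Glo1. Its gene (24722060 to 24724478, minus strand, GRCm38) lies 5.88 Mb from Glo1. The others lie at 0.92 Mb (Ndufv3), 3.23 Mb (Ndufa7), 26.1 Mb (Ndufa11), 35.5 Mb (Ndufv2) and 48.3 Mb (Ndufaf7). In the prefrontal cortex Ndufv3, the nearest, differed between genotypes by -0.12 (SE 0.079) and Ndufa7 by 0.06 (SE 0.106), with adjusted p of 0.50 and 0.84 in edgeR. Ndufb10 differed by -0.25 (SE 0.068, adjusted p = 0.33) in the striatum and -0.06 (SE 0.096, adjusted p = 1.0) in the hippocampus. The part of the position on chromosome 17 was not tested.

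The diet comparisons asked whether lack of dietary VB6 changed these transcripts within a genotype. None of the 45 genes was called in any region, in WT or KO mice, or for the interaction of genotype and diet, by edgeR, DESeq2 or limma. The same comparisons called 0% of all genes in edgeR. An unadjusted p under 0.05 was found in KO mice for 4 prefrontal genes, 1 striatal gene and 2 hippocampal genes (8.89%, 2.22% and 4.44%, against 5.19%, 1.68% and 6.56% of all genes). In WT mice it was found for 0 genes in each region, against 2.27%, 2.91% and 4.03% of all genes. For the interaction the counts were 0, 0 and 2, against 3.17%, 1.70% and 9.45% of all genes. In the prefrontal cortex of KO mice, Ndufa6 had 36.6, 43.3, 44.1, 46.1 and 47.4 CPM on the normal diet and 31.4, 34.7, 36.3, 36.8 and 47.3 on the lacking diet. The groups overlapped, and the log2 difference was -0.23 (SE 0.0945, adjusted p = 0.91). The median SE over the 45 genes in that comparison was 0.115. For the interaction, Ndufa11 in the hippocampus had 3.34 to 6.55 CPM in WT normal mice and 4.71 to 9.99 on the lacking diet. In KO mice the corresponding ranges were 7.09 to 10.6 and 4.96 to 7.44 CPM, a difference of differences of -0.78 (SE 0.270, adjusted p = 0.51).

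A score per library, the mean log2 CPM over the 45 genes, summarised these small differences. Group means of the score ran from 4.62 ± 0.115 (SD, n = 5) in the prefrontal cortex of KO lacking mice to 4.74 ± 0.0591 in the hippocampus of the same group. In the prefrontal cortex the other groups were at 4.69 ± 0.0619 (KO normal), 4.66 ± 0.0426 (WT lacking) and 4.68 ± 0.0518 (WT normal). In the striatum the means were 4.65 (KO lacking), 4.69 (KO normal), 4.72 (WT lacking) and 4.72 (WT normal), and in the hippocampus 4.74, 4.72, 4.67 and 4.65 in the same order. The ranges of all 4 groups overlapped in every region, and the score of KO mice was on the low side of WT in the striatum and on the high side in the hippocampus.

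**Figure D4:**
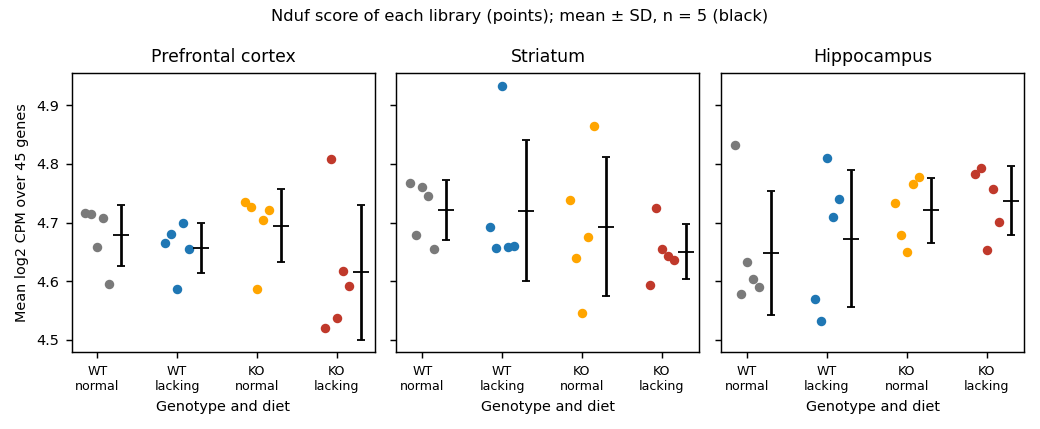
Mean log2 CPM over the 45 genes in each library (points), by region, genotype and diet, with mean ± SD of 5 mice in black. Group means lie between 4.62 and 4.74, and single libraries spread more widely than the group means.

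The 45 genes varied among mice of a group to different degrees and not in 1 direction. The within-group SD of log2 CPM had a median of 0.198. It was lowest for Ndufb5 (0.0851), Ndufv2 (0.0993) and Ndufa10 (0.0996) and highest for the thinly counted Ndufa4l2 (0.587) and Ndufs5 (0.538). Ndufa4 stood out with an SD of 0.443 at a mean count of 1349, as did Ndufb4 (0.352) and Ndufs6 (0.311). After group means were taken out, the leading component held 33.2% of the variance of the 45 genes. Its loadings ran from Ndufa4 (-0.304), Ndufaf2 (-0.242) and Ndufb4 (-0.228) to Ndufa11 (0.308), Ndufa4l2 (0.339) and Ndufs5 (0.343), so that these genes moved in opposite senses across mice.

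Over the 45 genes the loading had a Spearman correlation of 0.682 with the GC content of the longest coding transcript. It had one of 0.616 with the genotype difference in the prefrontal cortex, -0.635 with that in the striatum and 0.361 with that in the hippocampus. GC content itself correlated with these differences at 0.213, -0.527 and 0.145. These are descriptions across genes of the same 60 libraries, which share depth and preparation, and not tests. The component correlated with RIN over the libraries at r = -0.352, and its part in the genotype differences was not tested. Ndufa4 and Ndufc2 had a residual correlation of 0.864 over the 60 libraries, and Ndufs6 and Ndufb10 one of 0.822. Ndufa11 and Ndufaf4, the 2 genes printed above with the NRF1 palindrome, had -0.793. Of 990 pairs, 141 lay above 0.5 and 45 below -0.5, with a median of 0.0934.

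**Figure D5:**
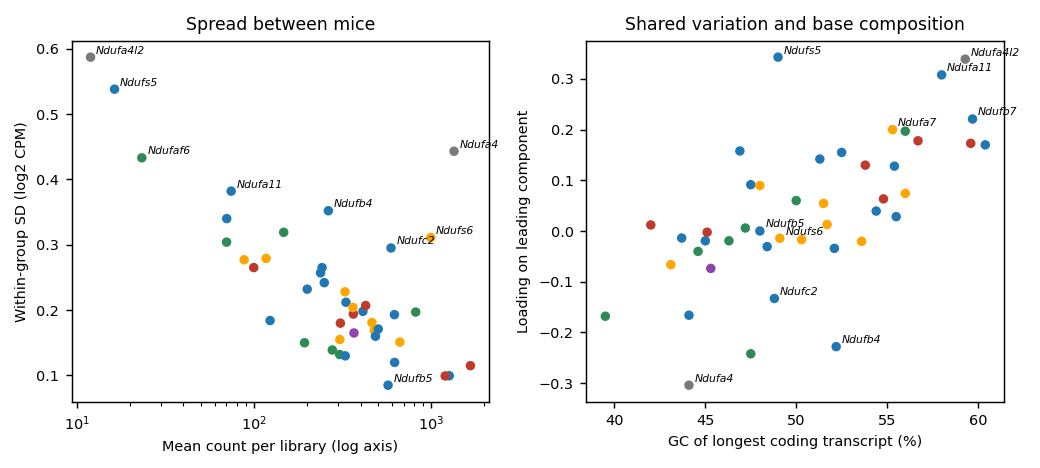
Left, within-group SD of log2 CPM against the mean count per library (log axis) for the genes shown; right, loading on the leading within-group component against GC content of the longest coding transcript (%). Colours give the role as in the plot of levels; Ndufa4 has an SD of 0.443 at a high mean count and the most negative loading, -0.304.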

How the data were processed

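Whole-number read counts and RPKM, both deposited by the authors, were available for 21999 genes in 60 libraries. STAR 2.7.1a, HTSeq 0.9.1 and mm10 are named in the submitters' processing notes; the annotation and the use of strand are not given in the sources used here. Deposited RPKM equalled count divided by column total and by a fixed length per gene, and 0 value columns were left unmatched.

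Counts were tested with edgeR 4.0.16 (R 4.3.3): TMM factors, filterByExpr (minimum count 10, total 15), quasi-likelihood F-tests, two-sided, BH over all genes tested at 0.05. Each region was fitted on its 20 libraries and regions on all 60. All 45 genes passed the filter in every comparison. Log2 CPM used a prior count of 2. Standard errors come from the F statistics. Levels per coding length and gene positions used GENCODE vM21 (GRCm38), promoters RefSeq GRCm38.p6.

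The same mouse gave all 3 regions, so mouse numbers pair the libraries; residuals of same-mouse libraries correlated at a mean r of 0.0468 across genes, against -0.0111 for different mice. Among 120 pairs of replicates, chi-square per gene was 1.94 to 26.2, above counting error. On data simulated for KO lacking against WT normal in the prefrontal cortex (13150 genes), edgeR found 65.7% of genes changed 1.5-fold, 94% of those changed 2-fold and 100% of those changed 4-fold; 9 of 182 calls were false.

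The genes and lists were chosen with earlier results of these data known. Named were genes past the threshold (at most the 5 largest per direction in full), or the 3 with the smallest p where none passed, the 5 highest and lowest in RPKM, the core genes and those on chromosome 17; others named for non-overlap, spread or loading were chosen after their values were seen. Of the 45 genes, 1 enters every count, fit and median but its own values are not reported here. Alternatives were DESeq2 1.42.0, limma 3.58.1 on log2(RPKM + 1), no TMM factors, no low-count filter, a mean of at least 1 CPM, RIN as covariate, only the compared groups, each batch alone, the mouse as block and leaving out each replicate. The tests of whether differences of genotype, or of KO lacking against WT normal, differed between regions were added after seeing the data. So was the level per coding length.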

Additional observations from a re-analysis of the deposited data

Results flagged for a closer look

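In 7 of 96 groups of 5 values examined, a single library lay far from the other 4, by a gap of more than 0.71 of the range; chance alone gives about 1 in 20. Ndufb2 was at 42.9 CPM in the hippocampus of KO lacking replicate 452, with the others at 33.1 to 35.5. Ndufs4 was at 28.2 CPM in the prefrontal cortex of KO lacking replicate 325, with the others at 35.3 to 37.8. Ndufa4 was at 249 CPM in the striatum of KO normal replicate 381, with the others at 75.1 to 103. Ndufs6 was at 82.3 CPM in the prefrontal cortex of WT lacking replicate 226, with the others at 106 to 115. The score over the 45 genes was 4.59 in the prefrontal cortex of KO normal replicate 368 (others 4.70 to 4.73), 4.93 in the striatum of WT lacking replicate 241 (others 4.66 to 4.69) and 4.83 in the hippocampus of WT normal replicate 272 (others 4.58 to 4.63).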

How the results depend on the processing

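For genotype over diets in the prefrontal cortex, 1 of the 45 genes was called, against 3 with DESeq2, 4 with RIN as a covariate, 4 without a low-count filter and 0 to 6 when 1 replicate was left out, all lower in KO. For KO lacking against WT normal there, 0 were called, against 4 with DESeq2, 1 with RIN as a covariate, 3 without a low-count filter, 4 in a fit of only the 2 groups compared and 0 to 3 when 1 replicate was left out. For hippocampus against prefrontal cortex, 11 were called, against 5 in WT libraries only, 17 with limma on log2(RPKM + 1) and 18 without TMM factors; the cause was not tested. The mouse as a replicate block, which pairs regions, gave 19 calls for striatum against cortex (18 without it), 12 for hippocampus against cortex (11) and 16 for striatum against hippocampus (16). In the other comparisons of genotype and diet the count was 0 under every alternative run. No called gene changed sign under the alternatives run. The share of all genes called under each alternative is not given here. A rise or fall in the counts is therefore not read as particular to the 45 genes. Counts of Ndufa4l2, Ndufs5 and Ndufaf6 were too low to show small differences. In GENCODE vM21, 11 of the 45 genes share over 10% of their exons or 75-base stretches with another gene, so their counts are uncertain. They are Ndufa2, Ndufa12, Ndufa13, Ndufaf2, Ndufb4, Ndufb5, Ndufb6, Ndufb9, Ndufb11, Ndufs3 and Ndufs5. The annotation used for counting is not given in the sources used here and may differ. Replicates are separate mice.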
